A study of Mus musculus with 12 samples.

Results

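The response of YAP-mutant Y428F cells to PTH was examined in 6 bulk RNA-Seq libraries, 3 from cells exposed to 50 nM PTH and 3 from cells exposed to vehicle (PBS), each for 2 hours. The genes described are the 16112 of 56980 annotated genes whose counts summed to 10 or more over these 6 libraries, which are 6 of the 12 libraries of the study. The other 6 come from the parental (WT) cells under the same PTH and vehicle treatments and were used only to ask where the response of Y428F cells differed. The cells are W-20-17, here W-20, a murine bone marrow stromal cell (BMSC) line.

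PTH, parathyroid hormone, binds the G protein-coupled receptor PTH1R, which raises cAMP and activates PKA and the transcription factor CREB. In the stromal cells that give rise to osteoblasts and adipocytes, PTH is known to favor bone formation and to change secreted factors that act on osteoclasts. YAP is the transcriptional coactivator at the end of the Hippo kinase cascade: when the LATS kinases do not phosphorylate it, it enters the nucleus and drives transcription with TEAD factors. In Y428F cells, a tyrosine of YAP that Src can phosphorylate is replaced by phenylalanine. In the text of the study, the YAP of the sequenced line also carries a serine-to-alanine change, at a site whose phosphorylation is known to promote YAP degradation.

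The Y428F cells are a stable line, made by introducing a plasmid with Flag-tagged YAP into W-20 cells and selecting positive clones with puromycin. The titles of the libraries read Y428F, whereas their genotype label reads WT. Neither label names the serine change. Cells that received wild-type YAP were not analysed here, so the tyrosine change, the serine change, the introduced YAP and any other difference between the lines cannot be told apart. The count table has 1 set of gene rows and no separate row for the introduced YAP. The study speaks of independent experiments in general but does not say whether the 3 libraries of a group came from separate cultures. The p-values then measure only the spread between these samples, which may be technical.

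Library totals were 17673798, 19057319 and 17670681 counts with vehicle and 17811136, 17731876 and 18064022 counts with PTH. Expression is given as CPM, counts scaled to library size and between libraries but not for gene length, so levels of different genes are not compared. Fold changes are log2 values of PTH over vehicle, and a gene counted as changed at an adjusted p under 0.05 in edgeR's quasi-likelihood test on the 6 libraries.

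The first principal component, with 38.59% of the variance, set the treatments apart, at scores of 51.44 to 98.62 for PTH and -77.33 to -64.31 for vehicle. The second held 21.76% and set PTH libraries 1 and 2 apart, at 86.25 and -96.36, whereas PTH library 3 scored -21.65 and the vehicle libraries 9.234 to 11.31. These PTH libraries also differed by transcript length. The median log2 ratio of PTH library 1 to PTH library 2 was 0.112 over the 3591 genes with the shortest transcripts and -0.123 over the 3588 with the longest. The median fold change with PTH was 0.0296 and 0.00469 in the same classes. Of the shortest class 357 genes rose and 206 fell, and of the longest 592 rose and 461 fell. The part of transcript length in the results was not tested. The counts for the main gene lists are therefore also given without PTH library 1 and without PTH library 2.

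The labelled cell type was checked against marker genes. Of 15 stromal markers 13 were tested, and their summed level was 12270 to 13030 CPM with vehicle and 11530 to 12770 CPM with PTH, with *Col1a1* taking the most counts of them. *Thy1*, a common stromal surface marker, had 0 counts in all 6 libraries. Blood cell markers summed to 18.07 to 19.44 CPM with vehicle and 19.82 to 23.14 CPM with PTH, with *Adgre1*, *Cd3e*, *Kit* and *Ms4a1* among those at 0 counts and *Cd14* taking the most counts. Muscle markers summed to 10.09 to 14.4 CPM with *Myod1*, *Myog*, *Myf5* and *Ckm* at 0, and epithelial markers to 3.331 to 5.508 CPM with *Epcam* and *Krt5* at 0. Endothelial markers summed to 9.201 to 11.25 CPM with vehicle and 7.186 to 8.263 CPM with PTH, with *Cldn5* and *Erg* at 0, and chondrocyte markers to 20.27 to 25.78 CPM over the 6 libraries, with *Acan*, *Col9a1* and *Hapln1* at 0. No blood, muscle or epithelial marker passed the test with PTH. *Cdh5*, an endothelial cadherin, and *Comp*, a cartilage matrix protein, fell, and their calls were lost in 7 of 13 and 8 of 11 alternative analyses. In bulk RNA, fewer cells of a type and less RNA per cell cannot be told apart.

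PTH changed 2672 of the 16112 genes in Y428F cells (16.6%), of which 1488 were higher (9.24%) and 1184 lower (7.35%). Most changes were modest. The median change was 0.297 on the log2 scale among genes that rose and 0.374 in size among those that fell, and 75 genes rose and 68 fell by at least 2-fold. All PTH libraries lay above all vehicle libraries for 1464 of the 1488 genes that rose, and below them for 1163 of the 1184 that fell. Over all genes tested, 33.1% had libraries that did not overlap. Without PTH library 1, 1727 genes rose and 1137 fell, and without PTH library 2 the counts were 1588 and 1394. Fewer genes passed without a vehicle library, 922 higher and 664 lower without vehicle library 1, 931 and 712 without vehicle library 2, and 1054 and 754 without vehicle library 3. At an adjusted p under 0.01 with a change beyond 0.3 on the log2 scale, 1067 genes passed (6.62%), 614 higher (3.81%) and 453 lower (2.81%). With scaling by library totals alone, 1068 genes rose and 1720 fell, so that 38.3% of the changed genes were higher in place of 55.7%. The median over all genes was then -0.0485 in place of 7.25e-05. Protein-coding genes made up 1446 of the genes that rose and 1127 of those that fell, and long noncoding RNAs 24 and 41.

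**Figure D1:**
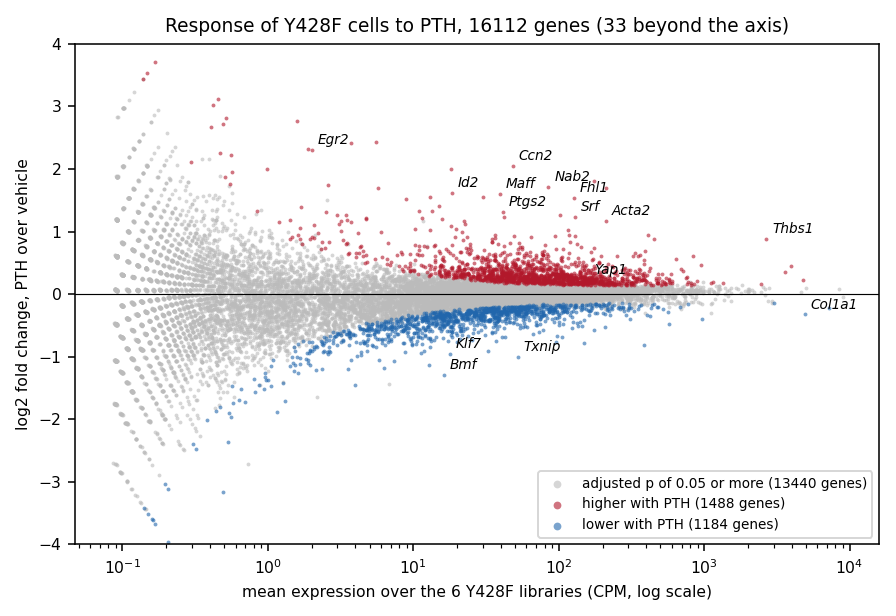
Log2 fold change with PTH (vertical axis) against the mean CPM over the 6 Y428F libraries (horizontal log axis) for the 16112 genes tested, with 33 genes of lower or higher fold change beyond the axis. Red points are the 1488 genes that rose and blue points the 1184 that fell. *Ccn2* and *Nab2* lie high among genes of medium level, and *Bmf* and *Txnip* low.

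Over genes that averaged 2 CPM or more in the 6 libraries and whose groups did not overlap, the 12 largest rises included the transcription factor *Egr2*, its corepressor *Nab2*, the matricellular YAP target *Ccn2*, the PDZ and LIM domain protein *Pdlim5*, the EGF family ligand *Ereg*, the differentiation inhibitor *Id2* and the small MAF factor *Maff*. *Ccn2* (chromosome 10, 24471333 to 24474900 of GRCm39) was 19.1, 19.1 and 18.7 CPM in vehicle libraries 1, 2 and 3 and 77.8, 87.0 and 69.0 CPM in the PTH libraries, a log2 change of 2.05 (standard error 0.0825, edgeR adjusted p = 1.37e-10). The PTH libraries were all far above the vehicle libraries, which lay within 1 CPM of each other. *Egr2* (chromosome 10, 67371305 to 67378018) was 0.767, 0.657 and 0.601 CPM in the vehicle and 3.38, 3.65 and 2.97 CPM in the PTH libraries, with 11 to 14 counts per vehicle library, 54 to 65 per PTH library and a log2 change of 2.30 (standard error 0.255, edgeR adjusted p = 1.34e-05). *Nab2* was 41.3, 40.5 and 37.7 CPM in the vehicle and 128, 133 and 129 CPM in the PTH libraries, a log2 change of 1.71 (standard error 0.0565, edgeR adjusted p = 1.40e-11). The 3 libraries of each group were close to each other for this gene. *Pdlim5* rose from 78.0 ± 0.468 to 272 ± 23.7 CPM (SD, n = 3), a fold change of 1.81. The magnesium transporter family gene *Nipal1* rose by 2.00 on the log2 scale, *Ereg* by 1.70 and *Maff* by 1.60. The long noncoding RNAs *Mirt1* and *Gm35546* rose by 2.41 and 1.74. The largest estimate, 2.42, was that of the ribosomal protein pseudogene *Rpl30-ps9*, with 0 CPM in vehicle libraries 1 and 2 and 5.30 CPM in vehicle library 3. Pseudogenes share reads with their parent genes, its call was lost in 5 of 12 alternatives, and the value ranged from 1.81 to 10.42 with single libraries left out.

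The 12 largest falls included *Bmf*, a proapoptotic BCL2 family member, *Btg2*, an antiproliferative p53 target, and *Txnip*, which binds thioredoxin and limits glucose uptake. *Bmf* was 22.6, 23.3 and 23.8 CPM in the vehicle and 9.37, 7.24 and 11.6 CPM in the PTH libraries, a log2 change of -1.29 (standard error 0.122, edgeR adjusted p = 2.92e-06). *Txnip* was 71.1, 70.0 and 69.1 CPM in the vehicle and 37.1, 31.7 and 35.2 CPM in the PTH libraries, a log2 change of -1.01 (standard error 0.0659, edgeR adjusted p = 5.47e-08). The groups did not overlap for either gene, which was a condition of their choice, and the spread within each group was narrow for *Txnip*. *Btg2* fell from 17.6 ± 2.07 to 7.98 ± 0.188 CPM. *Arhgef4*, a guanine nucleotide exchange factor, *Rab3a*, a small GTPase of secretory vesicles, *Sh2d3c*, an SH2 adaptor, and *Card6* fell by 1.21, 1.05, 1.06 and 1.18 on the log2 scale. The remaining falls were those of *Zfp696*, *Rfesd*, *Ajm1*, *Exoc3l4* and the long noncoding RNA *A030001D20Rik*, between -1.19 and -0.97.

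**Figure D2:**
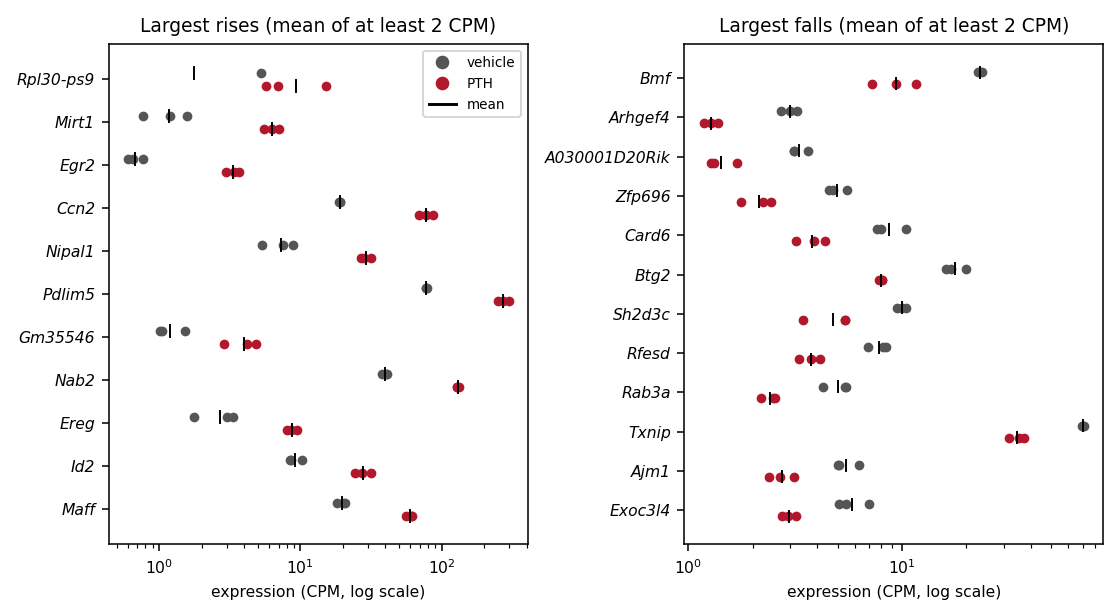
Expression in CPM (horizontal log axes) in each of the 3 vehicle (grey) and 3 PTH (red) Y428F libraries for 11 of the 12 genes with the largest rise (left) and the 12 with the largest fall (right), over genes averaging 2 CPM or more in the 6 libraries, with short lines at the means. The groups do not overlap for any of the 23 genes, which was a condition of their choice, and the 2 vehicle libraries at 0 for *Rpl30-ps9* cannot be drawn on a log axis.

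At the head of the pathway, *Pth1r*, the receptor gene, had 3 to 10 counts in the vehicle and 4 to 10 in the PTH libraries, and no change was detectable at this depth. Of 28 genes for the receptor, G proteins, adenylate cyclases, PKA, phospholipases, arrestins and *Src*, 2 rose and 3 fell, against backgrounds of 9.24% and 7.35%, and the median fold change was -0.0281. The higher count was 1 without vehicle library 1 or 3 or PTH library 2 or 3, and the lower count was 5 with library totals. The inhibitory G protein subunit *Gnai3* and *Gna13* rose by 0.30 and 0.20, the latter with its call lost in 6 of 13 alternatives. The adenylate cyclase *Adcy6* and the arrestins *Arrb1* and *Arrb2*, which desensitize G protein-coupled receptors, fell by 0.25, 0.27 and 0.37. *Src* was 105, 108 and 104 CPM in the vehicle and 98.7, 112 and 104 CPM in the PTH libraries, a log2 change of -0.0035 (standard error 0.0556, edgeR adjusted p = 0.976), and its groups overlapped. Of 10 cAMP phosphodiesterase genes, *Pde4d* and *Pde4b* rose and *Pde4a* fell, with fold changes of 0.65, 0.33 and -0.56. Of 9 RGS regulators, which shorten G protein signals, *Rgs4* rose (0.46) and *Rgs12* and *Rgs3* fell (-0.43 and -0.37). The calls of *Pde4b* and *Rgs4* were each lost in 3 of 13 alternatives, and that of *Rgs3* in 1. Of 17 CREB cofactors and salt-inducible kinases (SIKs), *Atf1* and *Mef2a* rose and *Sik1* and *Hdac7* fell. The calls of *Mef2a* and *Hdac7* were each lost in 7 of 13 alternatives and those of *Atf1* and *Sik1* in 1, and with a library left out in turn 0 to 3 of the list rose and 0 to 4 fell. *Sik1*, itself a known CREB target, fell from 29.4 ± 2.11 to 23.0 ± 2.17 CPM (log2 fold change -0.35, edgeR adjusted p = 0.00877).

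Of 21 cAMP and CREB target genes tested, 11 rose and 1, *Sik1*, fell (9.24% and 7.35% of all genes), with a median of 0.345 beside 7.25e-05 over all genes. The counts were 10 and 1 without PTH library 1 and 10 and 2 without PTH library 2, and none fell without vehicle library 3. The higher count was 8 without vehicle library 3 and 9 without vehicle library 2 or PTH library 3. The cyclooxygenase *Ptgs2* was 21.4, 26.6 and 23.9 CPM in the vehicle and 61.0, 62.6 and 53.6 CPM in the PTH libraries, a log2 change of 1.31 (standard error 0.084, edgeR adjusted p = 4.83e-08). The orphan nuclear receptor *Nr4a1* was 5.86, 6.98 and 7.37 CPM in the vehicle and 14.2, 14.6 and 12.7 CPM in the PTH libraries, a log2 change of 1.05 (standard error 0.118, edgeR adjusted p = 1.53e-05). Neither gene had overlapping groups. *Bhlhe40*, a repressor of the circadian clock, rose from 41.9 ± 3.67 to 69.0 ± 3.11 CPM. *Nr4a3* and *Fosb* were rare, at no more than 19 and 41 counts in any library, and their calls were lost in 4 of 11 and 8 of 13 alternatives. *Crem* was 5.48, 6.02 and 5.57 CPM in the vehicle and 6.16, 4.72 and 5.07 CPM in the PTH libraries and *Fos* 1.37, 0.758 and 1.15 CPM in the vehicle and 0.832, 1.12 and 1.05 CPM in the PTH libraries, with edgeR adjusted p of 0.752 and 0.876. *Tnfsf11*, which encodes RANKL, did not reach 10 counts over the 6 libraries.

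Of 31 immediate early transcription factor genes tested, 18 rose and 3 fell (9.24% and 7.35% of all genes), and the median was 0.301. Without PTH library 1 the counts were 16 and 4, and without PTH library 2 they were 15 and 4. The higher count was 13 without vehicle library 2 and 14 without PTH library 3. The lower count was 5 with DESeq2, with library totals, with no filter or with at least 10 counts in every library. After *Egr2*, *Nab2* and *Maff*, the serum response factor gene *Srf* and the AP-1 member *Junb* were among those that rose. *Junb* was 65.2, 63.1 and 58.6 CPM in the vehicle and 91.6, 86.5 and 96.5 CPM in the PTH libraries, a log2 change of 0.56 (standard error 0.0609, edgeR adjusted p = 1.12e-05), with no overlap. *Ier3* rose from 18.9 ± 0.456 to 29.3 ± 2.96 CPM. The genes that fell were *Btg2*, *Klf2* and *Jun*, the last by 0.37 on the log2 scale and named after its value was seen. *Klf2*, a Krüppel-like factor, was 28.2, 23.9 and 26.7 CPM in the vehicle and 15.8, 14.6 and 17.4 CPM in the PTH libraries, a fold change of -0.71.

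The Hippo pathway and YAP target genes addressed the question of the study, whether PTH acts on YAP. *Yap1* was 149.6, 141 and 149 CPM in the vehicle and 171, 169 and 174 CPM in the PTH libraries, and all PTH libraries were above all vehicle libraries. *Wwtr1*, which encodes the YAP paralog TAZ, was 158, 157 and 149 CPM in the vehicle and 182, 181 and 188 CPM in the PTH libraries. Their fold changes were 0.23 and 0.26 (edgeR adjusted p = 0.00294 and 0.00149). Reads of *Yap1* may come from the endogenous gene or the introduced one.

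Of 46 Hippo pathway genes tested, 15 rose and 4 fell (9.24% and 7.35% of all genes), and the median was 0.104. Without PTH library 1 the counts were 20 and 4, and without PTH library 2 they were 14 and 6. They were 12 and 3 without vehicle library 2 or 3. Among the DNA-binding partners, *Tead1* was 130.3, 131 and 132 CPM in the vehicle and 183, 231 and 233 CPM in the PTH libraries, a log2 change of 0.73 (standard error 0.0735, edgeR adjusted p = 5.12e-06). PTH library 1 was the lowest of the PTH libraries for *Tead1* and still above every vehicle library. *Tead4* rose from 12.8 ± 0.202 to 18.7 ± 2.49 CPM, and the TEAD cofactor *Vgll3* was 77.0, 80.5 and 83.6 CPM in the vehicle and 147, 159 and 154 CPM in the PTH libraries, a log2 change of 0.94 (standard error 0.0528, edgeR adjusted p = 1.01e-08). *Lats2*, the kinase that phosphorylates YAP and is itself a YAP target, was 107, 106 and 107 CPM in the vehicle and 167, 198 and 173 CPM in the PTH libraries, a fold change of 0.76. The LATS cofactors *Mob1a* and *Mob1b* rose by 0.25 and 0.25, *Frmd6* by 0.26, the kinase *Map2k3* by 0.51 and the LIM protein *Wtip* by 0.32, its call lost in 3 of 13 alternatives. *Arrdc3*, an arrestin domain protein known to bind YAP, was 15.7, 16.4 and 14.1 CPM in the vehicle and 8.60, 7.52 and 8.26 CPM in the PTH libraries, a log2 change of -0.91 (standard error 0.107, edgeR adjusted p = 2.36e-05). *Cit*, *Amotl1* and *Taok2* also fell, by 0.38, 0.27 and 0.27 on the log2 scale, *Taok2* being named after its value was seen. *Shank2*, *Nuak2* and *Dchs1* did not pass the test, with fold changes of 0.15, -0.11 and -0.86 and edgeR adjusted p of 0.285, 0.385 and 0.0630. *Dchs1* passed it in 3 of 13 alternatives and *Shank2* in 1.

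Of 21 YAP and TEAD target genes tested, 10 rose and 1 fell (9.24% and 7.35% of all genes), with a median of 0.0932. Without PTH library 1 these counts were 11 and 1, and without PTH library 2 they were 9 and 2. *Ccn1*, a matricellular paralog of *Ccn2*, was 290.1, 284 and 286 CPM in the vehicle and 463, 469 and 390.3 CPM in the PTH libraries, a log2 change of 0.63 (standard error 0.0619, edgeR adjusted p = 4.14e-06). The muscle ankyrin repeat gene *Ankrd1* was 147, 146 and 154 CPM in the vehicle and 199.9, 213 and 192 CPM in the PTH libraries, a log2 change of 0.45 (standard error 0.0519, edgeR adjusted p = 2.10e-05). Neither gene had overlapping groups. The transmembrane BMP regulator *Crim1* rose by 0.69 and the forkhead factor *Foxf2* by 0.59. *Myc* was 63.0, 59.8 and 67.3 CPM in the vehicle and 72.8, 83.5 and 69.4 CPM in the PTH libraries, a fold change of 0.26 whose call was lost in 4 of 13 alternatives. *Gadd45a*, a growth arrest and DNA damage gene, was the member that fell, 67.3, 69.5 and 69.3 CPM in the vehicle and 53.1, 43.6 and 47.9 CPM in the PTH libraries. The other 10 members tested, with fold changes between -0.11 and 0.093, did not pass the test.

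**Figure D3:**
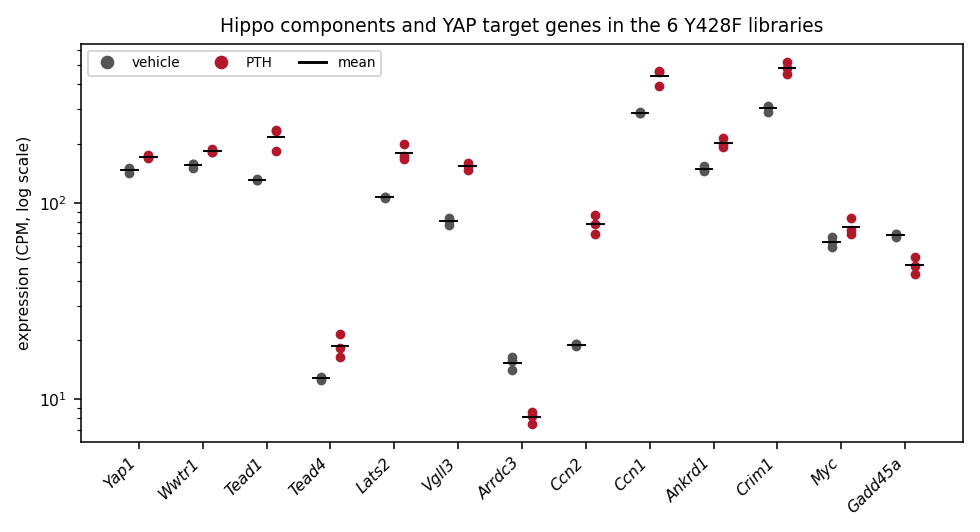
Expression in CPM (vertical log axis) of Hippo components and YAP target genes in the 3 vehicle (grey) and 3 PTH (red) Y428F libraries, with short lines at the means. All genes but *Arrdc3* and *Gadd45a* are higher with PTH, *Ccn2* by the widest margin, and CPM are not scaled for gene length.

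Of 45 tested targets of serum response factor (SRF), actin and adhesion genes, 27 rose and 2 fell (9.24% and 7.35% of all genes), with a median of 0.253. Without PTH library 1 the counts were 33 and 3, and without PTH library 2 they were 24 and 3. The higher count was 21 without vehicle library 2 and 22 without vehicle library 1, vehicle library 3 or PTH library 3. SRF binds the CArG box together with MRTF coactivators, which respond to actin polymerization, and drives genes of the contractile cytoskeleton. *Srf* itself (chromosome 17, 46857767 to 46867119) was 80.1, 77.3 and 76.9 CPM in the vehicle and 177, 192 and 178 CPM in the PTH libraries, a log2 change of 1.23 (standard error 0.0523, edgeR adjusted p = 2.53e-10). The smooth muscle actin gene *Acta2* was 124, 126 and 138 CPM in the vehicle and 299, 301 and 270.4 CPM in the PTH libraries, a log2 change of 1.17 (standard error 0.0574, edgeR adjusted p = 1.69e-09). All PTH libraries of both genes lay far above the vehicle libraries. *Fhl1*, a LIM domain protein, rose from 65.6 ± 1.03 to 190.1 ± 6.92 CPM and the actin-binding *Tagln* from 60.3 ± 2.15 to 145 ± 14.9 CPM. The skeletal actin gene *Acta1* had 10 to 15 counts in the vehicle and 48 to 64 in the PTH libraries, and *Lmod1*, leiomodin, had 2 to 5 and 14 to 21. The genes that fell, named after their values were seen, were *Synpo*, an actin-bundling protein, and the small GTPase *Rhob*, by 0.77 and 0.53 on the log2 scale.

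Promoter windows of 4 of these genes are printed because each gene rose and each window holds the letters of a motif that its factor is known to bind. Each sequence ends at or before a gene start of RefSeq, was matched exactly once to GRCm39 and runs 5′ to 3′ on the strand of the gene, with the motif in capitals. The windows of *Srf* and *Dusp5* stop 31 and 44 bases before the RefSeq start, where an exon begins in GENCODE vM39. The window of *Egr2* lies inside the span of the annotated gene, upstream of an internal start and outside its exons, and the others lie upstream of the gene.
Srf, chr17:46867120-46867238, minus strand: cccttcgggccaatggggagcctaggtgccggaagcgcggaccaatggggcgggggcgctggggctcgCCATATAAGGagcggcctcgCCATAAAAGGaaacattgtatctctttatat
Dusp5, chr19:53517426-53517531, plus strand: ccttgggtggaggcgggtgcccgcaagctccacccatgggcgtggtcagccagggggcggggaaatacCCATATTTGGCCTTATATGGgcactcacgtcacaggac
Egr2, chr10:67373246-67373395, plus strand: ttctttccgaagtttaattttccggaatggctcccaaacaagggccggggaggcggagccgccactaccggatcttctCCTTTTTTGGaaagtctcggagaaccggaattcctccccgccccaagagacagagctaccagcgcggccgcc
Ccn1, chr3:145355741-145355890, minus strand: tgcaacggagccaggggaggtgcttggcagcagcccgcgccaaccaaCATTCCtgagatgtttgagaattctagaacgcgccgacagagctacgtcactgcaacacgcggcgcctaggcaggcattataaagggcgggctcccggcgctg
Capitals in the first 3 mark CArG boxes, 2 each in *Srf* and *Dusp5*, where they adjoin, and 1 in *Egr2*. Capitals in *Ccn1* mark the TEAD motif GGAATG, here on the opposite strand. Other motifs were left in small letters, among them the short CRE motif TGACG in *Dusp5* and *Ccn1* and GGAATG in *Egr2*. *Dusp5* encodes a phosphatase of ERK and was 8.65, 7.18 and 7.43 CPM in the vehicle and 20.1, 18.5 and 19.2 CPM in the PTH libraries.

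Counted on both strands over the 300 bases around each RefSeq start, a CArG box was present for 1.81% of 27018 genes with a promoter, 1.62% of the matched genes tested, 3.44% of the 1133 matched genes that rose and 1% of the 900 that fell. It was present for 9 of 24 matched genes that rose in the SRF list (37.5%). That list was drawn up from known SRF targets with earlier results of these data known, so its share is no independent support. The TEAD motif GGAATG was present for 16.6% of all genes, 14.7% of those tested, 13.2% of those that rose, 14.3% of those that fell and 4 of 7 matched YAP targets that rose. The short CRE motif TGACG, whose letters also lie inside the full CRE TGACGTCA, was present for 23% of all genes, 43.5% of those that rose and 33% of those that fell. It was present for 34.2% of all genes tested, whether or not they changed. These matches describe letters and do not show binding.

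**Figure D4:**
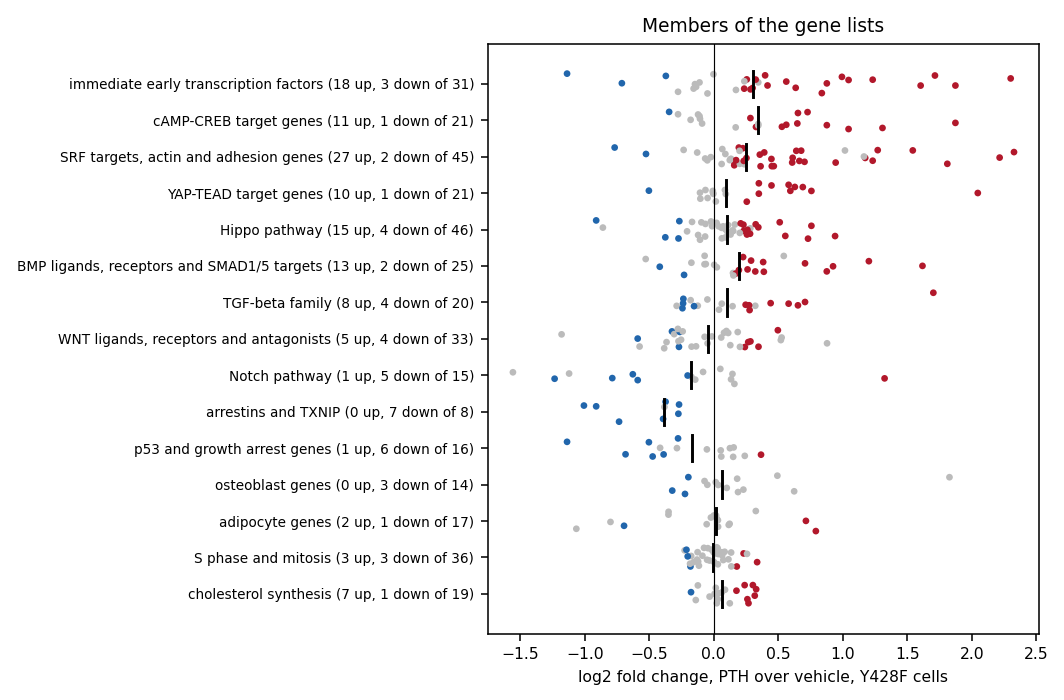
Log2 fold change with PTH (horizontal axis) of the tested members of 15 gene lists in Y428F cells, 1 point per gene, red for genes that rose, blue for genes that fell and grey for the rest, with the list median as a black line. The SRF, immediate early and cAMP lists lie mostly to the right of 0 and the arrestin list to the left.

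BMP ligands, receptors and SMAD targets numbered 25 tested genes, of which 13 rose and 2 fell (9.24% and 7.35% of all genes), with a median of 0.195. Without PTH library 1 the same counts were found, and without PTH library 2 they were 12 and 2. The higher count was 9 without vehicle library 1 or 2, and 1 fell without vehicle library 1. BMP receptors signal through SMAD1, SMAD5 and SMAD9 to the ID genes, which restrain differentiation. *Id2* was 8.54, 10.3 and 8.41 CPM in the vehicle and 31.7, 27.2 and 24.5 CPM in the PTH libraries, a log2 change of 1.62 (standard error 0.112, edgeR adjusted p = 1.04e-07). *Id1* was 23.7, 27.4 and 23.0 CPM in the vehicle and 50.7, 40.0 and 44.5 CPM in the PTH libraries, a log2 change of 0.88 (standard error 0.0912, edgeR adjusted p = 7.63e-06). *Id3* was 78.5, 71.8 and 76.8 CPM in the vehicle and 108, 89.9 and 97.9 CPM in the PTH libraries, a log2 change of 0.39 (standard error 0.0656, edgeR adjusted p = 6.77e-04). The 3 ID genes thus rose with PTH by different amounts, and none had overlapping groups. The receptor SMAD *Smad9* rose from 9.57 ± 1.06 to 22.0 ± 1.75 CPM, the helix-loop-helix factor *Atoh8* from 34.3 ± 3.26 to 64.7 ± 2.68 CPM and the inhibitory *Smad7* from 23.3 ± 2.37 to 37.7 ± 0.370 CPM. *Bmp4* and *Bmp1* fell, by 0.42 and 0.23 on the log2 scale, and were named after their values were seen.

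In the TGF-β family 8 of 20 tested genes rose and 4 fell (9.24% and 7.35% of all genes), with a median of 0.104. Beside *Smad7*, the activin subunit *Inhba* rose by 0.65, the ligand *Tgfb2* by 0.58 and the SMAD corepressor *Skil* by 0.44. The signal transducer *Smad3* was 127, 117 and 124 CPM in the vehicle and 95.4, 105 and 109 CPM in the PTH libraries, a log2 change of -0.24 (standard error 0.0576, edgeR adjusted p = 0.00808), its call lost in 1 of 13 alternatives. Without vehicle library 1 none of the family fell, and without vehicle library 2 only 1 did. *Tgfb1* was 52.4, 49.9 and 57.1 CPM in the vehicle and 54.4, 58.9 and 61.9 CPM in the PTH libraries, with overlapping groups and an edgeR adjusted p of 0.162.

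Among 18 tested osteoclast coupling factors and cytokines, 4 rose and none fell (9.24% and 7.35% of all genes). The higher count was 6 without PTH library 1 and 4 without PTH library 2, and 1 fell without PTH library 3. *Tnfrsf11b*, which encodes osteoprotegerin, the decoy receptor of RANKL, was 13.4, 11.0 and 14.4 CPM in the vehicle and 26.7, 27.8 and 25.2 CPM in the PTH libraries, a log2 change of 1.05 (standard error 0.0955, edgeR adjusted p = 2.06e-06). All PTH libraries were well above the vehicle libraries. The monocyte chemokines *Ccl7* and *Ccl2* rose by 0.91 and 0.90, and *Csf1*, the macrophage growth factor, by 0.33. Of 15 prostaglandin and hyaluronan genes 5 rose, *Ptgs2*, the prostaglandin receptor *Ptger4* (0.92), the hyaluronan receptor *Cd44* (0.32), the phospholipase *Pla2g4a* (0.25) and *Ptges3* (0.19), and none fell. Without vehicle library 2, 3 of them rose, and the calls of *Ptger4*, *Pla2g4a* and *Ptges3* were lost in 1, 2 and 3 of 13 alternatives.

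Of 33 growth factor and receptor genes 9 rose and 2 fell (9.24% and 7.35% of all genes), with 5 lower with library totals or with at least 10 counts in every library and 4 without PTH library 2. Ligands of the EGF receptor family were among the rises, *Ereg* and *Hbegf* (0.70), together with *Fgf7* (0.76), whereas *Fgf21* fell by 0.66. Of 20 ERK feedback genes 4 rose and 2 fell, and 1 fell without vehicle library 1, vehicle library 2 or PTH library 3. The rises were those of the phosphatases *Dusp5* (1.32), *Dusp6* (0.66), *Dusp14* (0.55) and *Dusp1* (0.53). *Spred3*, an inhibitor of RAS signaling, fell by 0.69 on the log2 scale.

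Of 33 WNT ligands, receptors and antagonists tested, 5 rose and 4 fell (9.24% and 7.35% of all genes), with a median of -0.0481. The higher count was 1 without PTH library 3, 2 without vehicle library 2 and 3 without vehicle library 1, vehicle library 3 or PTH library 2. The lower count was 2 without vehicle library 1 or 3 and 6 with library totals, with no filter or without PTH library 2. The WNT agonist *Rspo2* was 16.6, 13.6 and 16.8 CPM in the vehicle and 19.6, 19.9 and 19.8 CPM in the PTH libraries, a log2 change of 0.35 (standard error 0.0915, edgeR adjusted p = 0.0155), and *Wnt10b* fell by 0.32. The call of *Wnt4* was lost in 9, that of *Tcf7l2* in 7, that of *Rspo2* in 2 and that of *Wnt10b* in 1 of 13 alternatives. *Wnt5a* and the antagonist *Sfrp2* did not pass the test, with fold changes of -0.14 and 0.057 and edgeR adjusted p of 0.254 and 0.549. Of 15 Notch pathway genes 5 fell and 1 rose, with a median of -0.174. The receptor *Notch3* was 21.9, 20.6 and 20.9 CPM in the vehicle and 12.1, 13.9 and 15.8 CPM in the PTH libraries, a log2 change of -0.59 (standard error 0.0957, edgeR adjusted p = 4.83e-04). The ligands *Jag2* and *Jag1* fell by 1.23 and 0.79, and the target *Hes1* rose by 1.32, its call lost in 5 of 11 alternatives and that of *Jag1* in 2 of 13. Without vehicle library 1 only 2 of the Notch genes fell, and without PTH library 1, 3 rose and 3 fell, and none rose without vehicle library 2 or 3 or PTH library 2 or 3.

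Of 14 osteoblast genes tested, 3 fell and none passed the test as higher (7.35% and 9.24% of all genes), and 1 fell without vehicle library 1 or 3. The higher count was 1 without PTH library 1 or with no filter. The type I collagen gene *Col1a1* was 5784, 5299.9 and 5282 CPM in the vehicle and 3617, 4854 and 4548 CPM in the PTH libraries, a log2 change of -0.32 (standard error 0.0772, edgeR adjusted p = 0.00868), and *Col1a2* fell by 0.22. The lowest PTH value of *Col1a1* was that of library 1, the lowest of the 6. Their calls were lost in 2 and 4 of 13 alternatives, and that of *Atf4* in 3. *Runx2*, the osteoblast master regulator, was 72.8, 72.4 and 74.5 CPM in the vehicle and 70.5, 83.5 and 80.1 CPM in the PTH libraries (edgeR adjusted p = 0.322), with overlapping groups. Of 17 adipocyte genes 2 rose and 1 fell, shares near those of all genes. *Pparg*, the adipocyte master regulator, was 40.3, 38.9 and 40.5 CPM in the vehicle and 67.5, 65.5 and 62.1 CPM in the PTH libraries, a log2 change of 0.71 (standard error 0.0599, edgeR adjusted p = 8.53e-07). *Klf5* rose by 0.79 and the zinc finger factor *Zfp467* fell by 0.70. Of 35 matrix, protease and inhibitor genes 6 rose and 7 fell. The lower count was 13 without PTH library 2, 12 with no filter, 11 with library totals and 3 without vehicle library 1, and the higher count was 3 without vehicle library 1 or 2. Thrombospondin *Thbs1* was 2005, 1904 and 1774 CPM in the vehicle and 2964, 4102 and 3322 CPM in the PTH libraries, a fold change of 0.88. Of the stromal markers 1 rose and 3 fell, with 1 lower without vehicle library 1 and 2 higher without PTH library 2. *Pdgfra*, a receptor of mesenchymal progenitors, was 33.0, 29.5 and 32.4 CPM in the vehicle and 17.5, 21.3 and 18.3 CPM in the PTH libraries and *Vim* rose by 0.23.

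Arrestins and the arrestin domain proteins, to which TXNIP belongs, mostly fell. Of the 8 genes of this list 7 fell and none rose (7.35% and 9.24% of all genes), with a median of -0.388. The 7 include *Tsc22d3*, a glucocorticoid-induced leucine zipper gene that is not an arrestin, and the remaining member, *Arrdc4*, did not pass the test. *Txnip* and *Arrdc3* had the lowest fold changes, followed by *Arrdc2* at 8.60, 8.49 and 8.30 CPM in the vehicle and 4.71, 5.28 and 5.18 CPM in the PTH libraries. Between 5 and 7 of them fell under each of the alternatives. Of 16 p53 and growth arrest genes 6 fell and 1 rose. Besides *Btg2* and *Gadd45a*, the stress sensor *Sesn2* was 49.5, 53.7 and 55.0 CPM in the vehicle and 31.7, 33.0 and 33.2 CPM in the PTH libraries, a log2 change of -0.68 (standard error 0.0649, edgeR adjusted p = 2.92e-06), and *Sesn1* and *Trp53inp1* fell by 0.39 and 0.47. The member that rose was the p53 ubiquitin ligase *Mdm2*, by 0.37, named after its value was seen, and 2 rose without PTH library 3. Of 17 ATF4 stress genes 2 rose and 6 fell, and 3 fell without vehicle library 3 or PTH library 3. The higher count was 4 with no filter or without PTH library 2. *Slc7a11*, the cystine transporter, rose by 0.72 and *Trib3* fell by 0.50.

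Among metabolic and cell cycle genes, 7 of 19 cholesterol synthesis genes rose and 1 fell (9.24% and 7.35% of all genes), with *Insig1*, which holds back sterol synthesis, higher by 0.32. The lower count was 0 without vehicle library 1, vehicle library 3 or PTH library 3, and 3 without PTH library 1, with library totals or with at least 10 counts in every library. Of 36 genes of S phase and mitosis 3 rose and 3 fell, with a median of -0.00951, and *Rrm2*, a subunit of ribonucleotide reductase, had the highest fold change, 0.34. The lower count was 10 with library totals, 9 with at least 10 counts in every library, 7 with DESeq2 or without PTH library 2, and 1 when any one of the vehicle libraries or PTH library 3 was left out. The higher count was 5 without PTH library 2 and 1 without vehicle library 1 or 3. Of 18 circadian clock genes 5 rose and 3 fell, with *Cry1* and *Nr1d2* higher (0.54 and 0.49) and *Per3* and *Dbp* lower (-0.66 and -0.51). Of 34 SOX, KLF and other transcription factors 5 rose and 5 fell. *Klf7* fell from 23.7 ± 0.590 to 12.2 ± 1.35 CPM, a log2 change of -0.95 (standard error 0.0916, edgeR adjusted p = 3.26e-06), and *Klf9* rose from 25.1 ± 1.15 to 44.5 ± 3.87 CPM. Of 13 mitochondrially encoded genes, *mt-Co3* and *mt-Co2* fell, each with the call lost in 5 of 13 alternatives and a wide spread, 489.5 ± 172 to 277 ± 142 CPM for *mt-Co3*. The lower count was 8 with no filter, 4 without vehicle library 1, 1 without vehicle library 2, vehicle library 3 or PTH library 2, and 0 with DESeq2 or without PTH library 1. The mitochondrial sum was 9083 CPM in vehicle library 2 and 6741 to 7631 CPM in the other 5 libraries. Of 10 nuclear and reference RNAs, *Actb* rose and the nuclear long noncoding RNA *Neat1* fell, and 3 rose without PTH library 2.

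The response of Y428F cells was then set beside that of WT cells by testing the difference between the responses, the interaction of cell line and treatment, on all 12 libraries. It differed for 73 of 17691 genes (0.413%), 30 with a higher value in Y428F cells (0.17%) and 43 with a lower value (0.243%). At the stricter limit 22 genes differed (0.124%), 6 higher (0.0339%) and 16 lower (0.0904%). On their own 6 libraries, WT cells had 1837 of 15583 genes changed (11.8%), 1072 higher (6.88%) and 765 lower (4.91%). The vehicle and PTH libraries of Y428F cells enter both this test and the response above. The count fell to 24 without PTH library 3 of Y428F cells and to 31 without vehicle library 2. It was 32 and 38 without vehicle libraries 1 and 3, 54 and 82 without PTH libraries 1 and 2, and 46, 35 and 38 without WT vehicle library 3 and WT PTH libraries 1 and 2.

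Of the 46 SRF, actin and adhesion genes tested, 12 had a lower response in Y428F than in WT cells and none a higher one, against 0.243% and 0.17% of all genes. They were, named in full after their values were seen, *Acta2*, *Cnn1*, *Tagln*, *Pdlim5*, *Pdlim7*, *Palld*, *Myl9*, *Actg1*, *Actb*, *Tpm1*, *Itga5* and *Srf*. With a library left out in turn the count ran from 7, without PTH library 3 of Y428F cells or WT PTH library 1, to 13, and it was 11 and 12 without PTH libraries 1 and 2. The calls of *Tagln*, *Srf*, *Tpm1*, *Itga5* and *Actb* were lost in 9, 8, 8, 6 and 2 of these 12 fits, and those of the other 7 genes in none. In WT cells *Acta2* rose from 107 ± 15.8 to 487 ± 6.10 CPM, and in Y428F cells from 129 ± 7.49 to 290.1 ± 17.1 CPM, and the log2 difference was -1.02 (standard error 0.11, edgeR adjusted p = 7.34e-05). In WT cells the calponin *Cnn1* rose from 9.65 ± 1.25 to 39.4 ± 2.00 CPM, and in Y428F cells from 8.31 ± 1.21 to 13.4 ± 1.01 CPM, a difference of -1.33 (95% interval -1.67 to -0.99, edgeR adjusted p = 2.22e-04). The levels with vehicle were of similar size in the 2 lines for both genes, and the PTH levels were lower in Y428F cells. *Pdlim5*, *Tagln*, *Actb* and *Srf* had differences of -0.76, -0.55, -0.51 and -0.44 (edgeR adjusted p = 1.81e-04, 0.0289, 0.0106 and 0.0457). The actin-binding genes *Nexn* and *Daam1*, the latter a formin, also had lower responses, -1.37 and -0.94. *Daam1* was 26.0, 26.2 and 22.8 CPM in the vehicle and 27.8, 28.8 and 24.3 CPM in the PTH libraries in Y428F cells, with overlapping groups, and rose from 20.2 ± 0.443 to 41.8 ± 3.21 CPM in WT cells.

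Of 26 BMP genes tested, *Id1*, *Id3* and *Atoh8* had a lower response in Y428F cells and none a higher one, against 0.243% and 0.17% of all genes, and the 3 calls held with each of the 12 libraries left out. In WT cells *Id1* rose from 1.22 ± 0.128 to 7.03 ± 0.464 CPM, and in Y428F cells from 24.7 ± 2.35 to 45.1 ± 5.39 CPM, so that its level with vehicle in Y428F cells was above that of WT cells with PTH. *Atoh8* rose from 5.98 ± 0.278 to 33.1 ± 2.72 CPM in WT cells. The differences in response were -1.66 (95% interval -2.08 to -1.23, edgeR adjusted p = 2.33e-04) and -1.55 (95% interval -1.82 to -1.29, edgeR adjusted p = 1.04e-06), and that of *Id3* was -3.38. For *Id2*, with 2.30 ± 0.570 to 13.1 ± 1.03 CPM in WT cells, the difference was -0.90 (95% interval -1.33 to -0.46, edgeR adjusted p = 0.0720) and did not pass the limit.

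Of 31 immediate early genes, 5 had a higher response in Y428F cells (*Egr2*, *Maff*, *Mafk*, *Junb* and *Ier3*) and 1, *Srf*, a lower one, against 0.17% and 0.243% of all genes. With a library left out in turn 1 to 6 were higher, 1 without vehicle library 2 or 3, 2 without vehicle library 1, PTH library 3 or WT PTH library 2, and 3 without PTH library 2, WT vehicle library 2 or 3 or WT PTH library 1. *Maff* rose by 1.60 in Y428F and by 0.85 in WT cells on the log2 scale, a difference of 0.75 (95% interval 0.52 to 0.98, edgeR adjusted p = 0.00187). Outside this list, the transcriptional corepressor *Irf2bp2* was 117, 106 and 104 CPM in the vehicle and 152, 168 and 165 CPM in the PTH libraries in Y428F cells, a difference of 0.69 (95% interval 0.50 to 0.88, edgeR adjusted p = 6.35e-04). *Stx3*, a syntaxin of vesicle fusion, rose from 13.5 ± 0.398 to 25.2 ± 2.24 CPM in Y428F cells and was 17.7 ± 1.76 to 18.8 ± 1.20 CPM in WT cells. These 3 calls held with each of the 12 libraries left out. Other calls were lost more often, that of *Egr2* (difference 1.89) in 10 of these 12 fits, that of *Fam180a* (1.22) in 8, *Junb* (0.69) in 6, *Mafk* in 7, *Ier3* (0.91) in 4 and *Rorb* (0.77) in 1. Among lower responses, the call of *Pakap*, a gene model that overlaps another of the same symbol, was lost in 8 of the 12 fits.

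**Figure D5:**
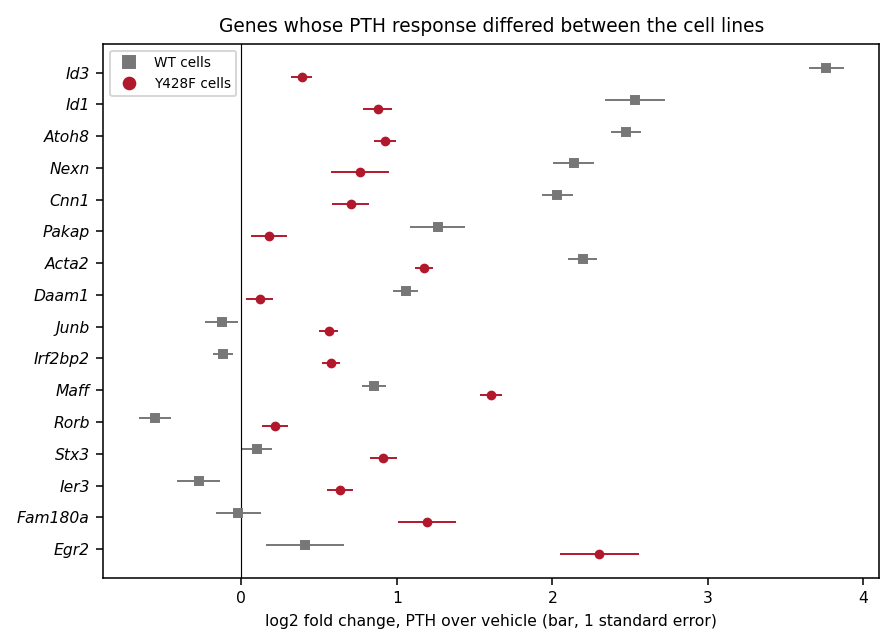
Log2 fold change with PTH (horizontal axis, bars of 1 standard error, 3 libraries per group) in WT cells (grey squares) and Y428F cells (red circles) for the 8 genes with the largest lower and the 8 with the largest higher response in Y428F cells. *Id3* has the widest gap, and *Acta2* and *Cnn1* rise in both lines but less in Y428F cells.

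Of 22 YAP target genes tested 1, *F3*, had a higher response in Y428F cells, beside 0.17% of all genes, and was named after its value was seen. Of 46 Hippo genes 1, *Arrdc3*, had a lower value, at -0.64, beside 0.243% of all genes. With a library left out in turn these calls were lost in 9 and 11 of 12 fits. No YAP target had a lower response in the main fit, whereas 1 had with DESeq2 and 3 with no filter. Without WT PTH library 3 the lower count of this list was 2, and without PTH library 2 of Y428F cells it was 1. The differences were -0.12 (95% interval -0.28 to 0.031, edgeR adjusted p = 0.811) for *Yap1*, 0.058 (95% interval -0.29 to 0.41, edgeR adjusted p = 0.984) for *Ccn2*, -0.054 (95% interval -0.30 to 0.19, edgeR adjusted p = 0.972) for *Tead1* and 0.072 (95% interval -0.12 to 0.26, edgeR adjusted p = 0.937) for *Lats2*. For *Ccn1*, *Ankrd1* and *Myc* they were -0.45, -0.38 and -0.39, each lower in Y428F cells and short of the limit (edgeR adjusted p = 0.136, 0.169 and 0.188). With a library left out in turn, the difference ranged from -0.71 to -0.47 for *Tead4* and from -0.33 to -0.21 for *Frmd6*. It ranged from 0.069 to 0.197 for *Wtip* and from 0.074 to 0.149 for *Map2k3*, and none of these passed the test. The 95% intervals above do not show that the lines responded alike.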

How the data were processed

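The authors aligned reads with STAR 2.7.10b to GRCm39 with the GENCODE vM31 annotation and deposited expected counts per gene from RSEM, and the submitters' processing notes also list DESeq2. The strand setting of the counting is not given in the sources used here, so reads of overlapping and antisense genes may be mixed. Gene symbols, positions and biotypes were taken from GENCODE vM39, in which 56236 of 56980 gene IDs were found and 744 were not. Of the genes tested, 99 had no symbol.

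Expected counts were rounded to whole numbers. Genes whose counts summed to 10 or more in a fit were tested with edgeR 4.0.16 (glmQLFit and glmQLFTest, TMM scaling, R 4.3.3), and p-values were adjusted over all genes tested by the Benjamini-Hochberg method. CPM were TMM-scaled, and principal components were computed from log2 CPM with a prior count of 2. The response to PTH was fitted on the 6 Y428F libraries and the difference between lines on all 12. Depth was 17670681 to 19057319 counts per library, which hold 99.979% of their counts in the genes tested. Counts of libraries of the same group spread beyond Poisson error, at a chi-square per degree of freedom of 3.341 to 5.493 with vehicle and 4.123 to 11.08 with PTH.

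The 35 gene lists and the genes named were chosen with earlier results of these data known. Named genes were the 12 largest rises and falls over genes averaging 2 CPM or more in the 6 libraries, with no overlap, up to 5 changed genes per list by size, genes of the pathway fixed by name, and the 8 largest differences in each direction between lines. Genes named beyond this rule were chosen after their values were seen. A few genes that the rule names are not reported here. Promoter sequences and start sites are those of RefSeq, from a table on GRCm38.p6, located on GRCm39 by exact match. The alternatives were DESeq2 1.42.0, DESeq2 size factors, scaling by library totals, other count filters, a replicate block, all 12 libraries in the fit, a stricter limit, and each library left out in turn. The fits were tested on simulated data.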

Additional observations from a re-analysis of the deposited data

Results flagged for a closer look

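The response to PTH differed between the lines, by the tested interaction, for 26 named genes, given here as the log2 response of Y428F cells minus that of WT cells. A lower value is a smaller ratio of PTH to vehicle. *Id1* and *Atoh8* had higher levels in Y428F than in WT cells with either treatment. Lower values in Y428F cells were found for the BMP target genes *Id3* (-3.38), *Id1* (-1.66) and *Atoh8* (-1.55), and for the actin and SRF genes *Nexn* (-1.37), *Cnn1* (-1.33), *Acta2* (-1.02), *Daam1* (-0.94), *Pdlim5* (-0.76), *Tagln* (-0.55), *Actb* (-0.51) and *Srf* (-0.44). They were also found for *Pakap* (-1.08), the long noncoding RNA *Neat1* (-0.76), the phosphodiesterase *Pde4d* (-0.74), and the arrestin domain genes *Arrdc3* (-0.64) and *Txnip* (-0.49). With a library left out in turn, the calls of *Arrdc3*, *Pde4d*, *Txnip* and *Neat1* were lost in 11, 9, 8 and 7 of 12 fits. Those of *Tagln*, *Srf*, *Pakap* and *Actb* were lost in 9, 8, 8 and 2. Higher values were found for the transcription factors *Egr2* (1.89), *Maff* (0.75), *Junb* (0.69), *Bhlhe40* (0.61) and *Rorb* (0.77), the corepressor *Irf2bp2* (0.69), *Ier3* (0.91), *Stx3* (0.81), *Fam180a* (1.22) and *Chac1* (0.58), a glutathione-degrading enzyme. The calls of *Egr2*, *Chac1*, *Fam180a*, *Junb*, *Ier3* and *Rorb* were lost in 10, 8, 8, 6, 4 and 1 of 12 fits with a library left out. Groups of 3 libraries were too small to look, gene by gene, for single outlying libraries.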

How the results depend on the processing

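Among genes whose response in Y428F cells was followed through the alternatives, no direction changed under another tool, scaling or filter. With a library left out, 3 changed. These genes do not include every gene named above. At the stricter limit 1067 genes changed in Y428F cells, 614 higher and 453 lower. With a library left out, the count ran from 1586 to 2982, with 922 to 1727 higher and 664 to 1394 lower. DESeq2 called 1361 higher and 1057 lower. The difference between lines was called for 124 genes by DESeq2 (52 higher, 72 lower), 216 with no filter on low counts (96 and 120) and 22 at the stricter limit (6 and 16), and for 24 to 89 with a library left out (6 to 37 higher and 18 to 57 lower). The response of WT cells, 1072 genes higher and 765 lower, ran from 905 to 2211 genes with a library left out (613 to 1305 higher and 292 to 906 lower), and 1216 were lower with library totals alone. The first principal component held 29.39% over the most variable genes, 30.12% unscaled, and 40.94% to 45.73% with a library left out.

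The replicate numbers were not taken to pair the libraries. Same-numbered vehicle and PTH libraries correlated at 0.0387, 0.0321 and -0.0453 in their deviations from the group means. Differently numbered ones correlated at -0.102 to 0.0891. With 3 libraries per group these values cannot decide whether the libraries were paired. With the replicate number as a block, 1382 genes rose and 1145 fell in Y428F cells, and 24 and 34 differed between lines.

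Reversals were found only for values near 0 that did not pass the test, and the cause was not tested. With a library left out in turn, the fold change ranged from -0.06146 to 0.03823 for *Src*, -0.4213 to 0.221 for *Pth1r* and -0.3238 to 0.08156 for *Fos*. The difference between lines turned for *Wwtr1* to 0.008192 with library totals, 0.00104 with at least 10 counts in every library and 0.001207 with no filter, and for *Mob1a* to -0.0003387 with DESeq2 and -0.0004572 with its size factors. With a library left out it ranged from -0.06268 to 0.1631 for *Ccn2*, -0.03493 to 0.01594 for *Wwtr1*, -0.02965 to 0.02264 for *Mob1a*, -0.1045 to 0.004845 for *Mob1b*, -0.01553 to 0.1152 for *Lats2* and -0.1311 to 0.0463 for *Tead1*.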

Other observations

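Further members of the lists that rose with PTH in Y428F cells, chosen after their values were seen, include more small MAF and AP-1 factors, focal adhesion genes and growth factors. The AP-1 member *Fosl1* was 13.1, 14.6 and 15.6 CPM in the vehicle and 28.6, 30.1 and 27.0 CPM in the PTH libraries, a log2 change of 0.99 (edgeR adjusted p = 9.73e-07). *Mafk*, a partner of bZIP factors, was 25.2, 24.5 and 25.3 CPM against 42.9, 47.0 and 43.4 CPM. Both sets of libraries were far apart. The focal adhesion protein gene *Vcl* was 281, 280.3 and 278 CPM against 457, 608 and 542 CPM, with PTH library 1 the lowest of the PTH libraries, as for *Tead1*. The actin-binding genes *Palld*, *Lima1* and *Cald1* rose by 0.66, 0.61 and 0.61 on the log2 scale. The EGF family ligand *Nrg1* rose by 0.63 and the neurotrophin *Bdnf* by 0.60, and *Angptl4*, an inhibitor of lipoprotein lipase, fell by 0.48.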
